A study of Mus musculus with 20 samples.

Results

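Genes that mark the other main cell types of the brain were followed through the DNA methylation of microglia, 10 in all: the neuronal genes Rbfox3, Syt1 and Snap25, the astrocyte genes Gfap, Aqp4 and Slc1a3, and the oligodendrocyte lineage genes Olig2, Sox10, Mbp and Mog. They were chosen by name, and every 1000 bp window that overlapped one of them or its flanks of 5 kb was taken, which gave 1343 of the 2260746 windows measured at 7 months and 1345 of the 2280867 windows measured at 10 months. Of 1361 possible windows, 1337 were measured at both ages, and the genes were 10 of the 21851 protein-coding genes with an annotated start. Methylation was measured by enzymatic methyl sequencing, which reads unmethylated cytosines as thymine after enzymatic conversion, in microglia isolated from the whole brain of 1 male mouse per library. The groups were mThy1-α-synuclein mice (Tg), which overexpress full-length human wild-type α-synuclein from a transgene on the X chromosome under the murine Thy-1 promoter, and wild-type mice (WT), all on the B6D2F1/J background. There were 6 Tg and 4 WT libraries at 7 months of age, and 5 Tg and 5 WT libraries at 10 months. Libraries are named by group and replicate number. The Thy-1 promoter acts mainly in neurons, and none of the 10 genes was altered by design. The transgene is inherited, so the DNA of microglia carries it too.

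Methyl groups are placed on cytosines that are followed by guanine (CpG sites). CpG-dense promoters, called CpG islands, are unmethylated in most cell types whether or not the gene is used, while CpG-poor promoters of genes restricted to one lineage are often methylated in the cells that do not use them and unmethylated in those that do. Along the body of most genes, CpG sites are methylated. Microglia come from the yolk sac and not from the neural lineage, and they do not express the 10 genes as part of their program. Each value is a percent over the DNA of a whole library, so a window at an intermediate level in every cell cannot be told apart from a mixture of methylated and unmethylated cells.

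Before the results, 2 libraries at 7 months have to be named because they went against their labels. In a Thy1 window (mm10 chromosome 9, 44048001 to 44049000), methylation at 10 months lay between 30.2% and 35.7% in the 5 Tg libraries and between 70.2% and 76.9% in the 5 WT libraries. The window serves here only as a check of the labels, and the cause of this gap was not tested. At 7 months the library labelled Tg replicate 6 was at 73.6% and the library labelled WT replicate 2 at 31.0%. Of the other Tg libraries at 7 months, replicates 1, 4 and 5 were at 31.4%, 32.9% and 33.3%, while replicates 2 and 3 were at 53.7% and 53.1%, between the levels of the groups at 10 months. The other 3 WT libraries lay between 68.4% and 75.5%. The main group comparisons at 7 months are therefore given with and without Tg replicate 6 and WT replicate 2, and other values at 7 months are as labelled. Mean methylation over all windows was 76.3% ± 0.70 (SD, n = 6) and 76.7% ± 0.19 (SD, n = 4) in the libraries labelled Tg and WT at 7 months, and 76.7% ± 0.26 (SD, n = 5) and 77.5% ± 0.22 (SD, n = 5) at 10 months. The study processed both genotypes of an age together up to nucleic acid isolation. Age therefore cannot be told apart from processing. Means and SDs over all 20 libraries pool both ages and both genotypes, so they describe levels and not the spread within 1 group. The study sequenced the methylation libraries in 2 batches and detected no batch effect, but which library was in which batch is not stated. The number of reads behind a value is unknown. The p-values rest on the spread between libraries of 1 mouse each, which also takes in the counting error of the reads.

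The 200 bases upstream of the annotated start show how much the CpG content of these genes differs, so 5 of them are printed here, 5′ to 3′ on the strand of the gene, from the GRCm38.p6 assembly of RefSeq, which has the coordinates of mm10. Each lies within the 1 kb window that holds the start of its gene. CG is in capitals and all other bases are in lower case. The stretches are chr16:91225257-91225456 (plus strand) for Olig2, chr2:136713253-136713452 (plus strand) for Snap25, chr11:102897201-102897400 (minus strand) for Gfap, chr15:79165241-79165440 (minus strand) for Sox10 and chr17:37023399-37023598 (minus strand) for Mog.
Olig2: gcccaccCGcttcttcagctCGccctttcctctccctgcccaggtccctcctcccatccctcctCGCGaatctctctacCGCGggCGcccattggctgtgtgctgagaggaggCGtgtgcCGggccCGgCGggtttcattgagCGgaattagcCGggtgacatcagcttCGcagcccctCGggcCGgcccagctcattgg
Snap25: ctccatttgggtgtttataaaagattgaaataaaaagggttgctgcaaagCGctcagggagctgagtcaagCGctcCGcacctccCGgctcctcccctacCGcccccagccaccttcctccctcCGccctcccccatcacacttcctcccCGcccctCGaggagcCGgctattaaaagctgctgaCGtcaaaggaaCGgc
Gfap: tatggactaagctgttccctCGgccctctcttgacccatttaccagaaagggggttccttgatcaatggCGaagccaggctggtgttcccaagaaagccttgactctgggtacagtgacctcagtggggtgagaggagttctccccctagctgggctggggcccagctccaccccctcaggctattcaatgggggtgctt
Sox10: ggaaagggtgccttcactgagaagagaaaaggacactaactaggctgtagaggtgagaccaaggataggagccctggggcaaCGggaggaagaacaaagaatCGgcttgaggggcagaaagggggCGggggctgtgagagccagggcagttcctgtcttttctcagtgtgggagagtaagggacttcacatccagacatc
Mog: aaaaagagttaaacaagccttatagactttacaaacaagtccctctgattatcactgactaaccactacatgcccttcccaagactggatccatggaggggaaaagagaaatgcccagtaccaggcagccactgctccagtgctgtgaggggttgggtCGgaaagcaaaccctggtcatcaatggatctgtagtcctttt

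These stretches hold 16 CG in Olig2, 11 in Snap25, 3 in Sox10, 2 in Gfap and 1 in Mog. Over the upstream 200 bases of all 21851 genes the median was 8 CG. At least as many CG as in Olig2 were found in 25.2% of genes, as in Snap25 in 40.6%, as in Sox10 in 72.8%, as in Gfap in 80.6% and as in Mog in 90.5%. The windows around these stretches were methylated in the reverse order, at 1.94% for Olig2, 4.42% for Snap25, 61.2% for Sox10, 74.2% for Gfap and 88.3% for Mog. This order was seen over 5 chosen genes. Among the other members, 2 start windows that both held 39 CpGs were at 0.845% (Slc1a3) and 92.4% (Mbp).

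The 10 genes had 17 start windows, that is windows that hold the 5′ end of a basic protein-coding transcript in GENCODE, and these fell into 3 ranges. A first set of 6 windows, from 6 genes, had a mean under 20% over the 20 libraries (0.607% to 6.67%), 6 windows were intermediate (29.6% to 74.2%), and 5 windows were over 80% (87.0% to 92.4%). The 6 low windows belonged to Mbp, Slc1a3, Olig2, Rbfox3, Snap25 and Syt1 and held 33 to 94 reference CpGs, and no library exceeded 11.3% in any of them. The lowest library in the other 11 windows was at 16.3%, in Sox10. A gene restricted to another lineage was thus found at either end of the scale, and 2 genes, Mbp and Rbfox3, had start windows at both ends.

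**Figure D1:**
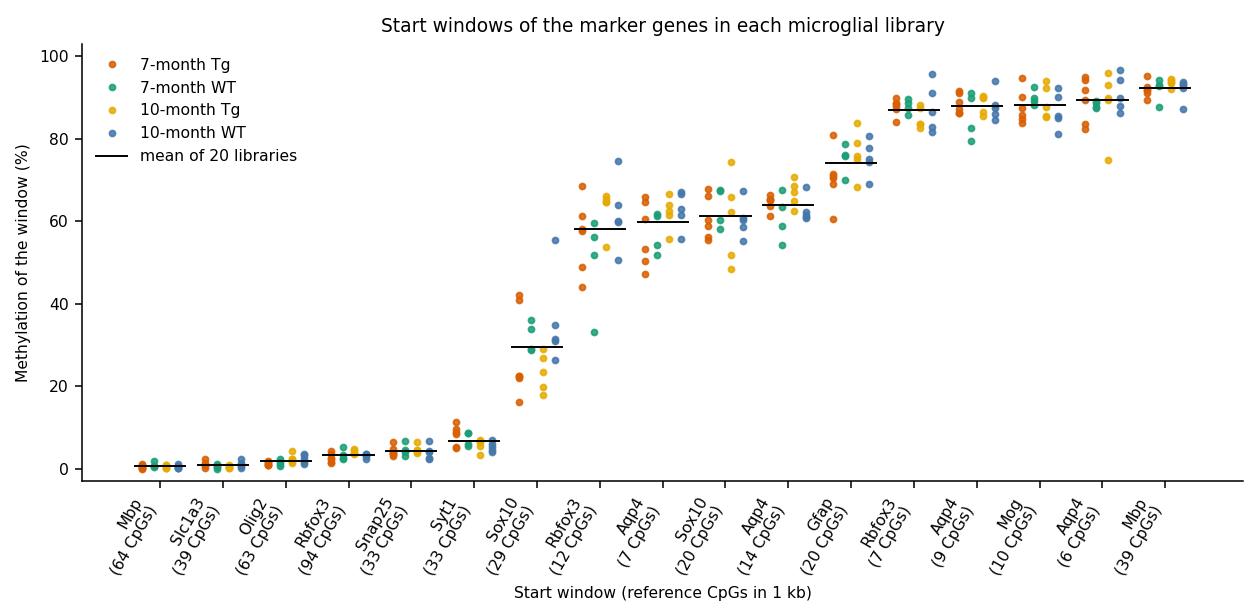
Methylation in percent (vertical axis) of each of the 17 start windows, ordered by mean, with the number of reference CpGs in brackets. Each point is 1 library, coloured by group as labelled, and the bar is the mean of 20 libraries. The first 6 windows stay at or under 11.3% in every library, and the last 5 stay at or over 74.9%.

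Averaged over the start windows of a gene, the order from low to high was Slc1a3 at 0.845% ± 0.66, Olig2 at 1.94% ± 0.96, Snap25 at 4.42% ± 1.31, Syt1 at 6.67% ± 2.04, Sox10 at 45.4% ± 6.55, Mbp at 46.5% ± 0.99, Rbfox3 at 49.5% ± 3.60, Gfap at 74.2% ± 5.50, Aqp4 at 75.2% ± 2.47 and Mog at 88.3% ± 3.69 (SD, n = 20). The ranges over libraries were separate between Syt1 and Sox10, between Rbfox3 and Gfap, and between Aqp4 and Mog. All other neighbours in this order overlapped, and Gfap and Aqp4, for example, were ordered this way in only 11 of 20 libraries. This order depended on the windows taken: with windows within 500 bp of a start, Slc1a3 was at 33.5% at 7 months and 35.6% at 10 months, above Olig2, Snap25 and Syt1, and Mog was at 64.5% and 62.6%, below Mbp, Gfap and Aqp4, so neither end of the order held. Weighted by CpG count, Rbfox3 was at 13.7% and 15.03%. The middle positions of Mbp and Rbfox3 are averages of very different windows, as described for each gene.

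Each neuronal gene had a CpG-dense start window under 20%, which for Rbfox3 was 1 of 3 start windows, and a body mean of 69.7% to 76.3%. Syt1 encodes the calcium sensor of synaptic vesicle release. Its start window (chromosome 10, 109010001 to 109011000, 33 CpGs, 5′ UTR) was at 5.51%, 8.60%, 5.91% and 8.58% in the WT libraries at 7 months and between 4.96% and 11.3%, with a median of 8.77%, in the 6 Tg libraries. The 10-month libraries were at 3.47%, 5.53%, 6.98%, 6.78% and 6.41% in Tg and at 4.05%, 5.28%, 7.09%, 5.97% and 4.63% in WT. The groups overlapped at both ages. The low stretch covered 2 kb, with the window upstream of the start (32 CpGs) at a mean of 2.76% and between 0.646% and 4.43% over the 20 libraries.

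Snap25 encodes a membrane protein of the complex that fuses synaptic vesicles. Its start window (chromosome 2, 136713001 to 136714000, 33 CpGs) was at 4.53%, 4.11%, 3.17% and 6.78% in the WT libraries at 7 months and between 3.10% and 6.39%, with a median of 3.84%, in Tg. In the 10-month libraries it was at 6.62%, 4.09%, 3.86%, 4.58% and 4.68% in Tg and at 4.197%, 2.52%, 2.49%, 4.43% and 6.73% in WT. No library left the range from 2.49% to 6.78%, and the low stretch extended over 3 kb. The gene body averaged 73.8% ± 1.18 (SD, n = 20). Its highest window among those measured at both ages, over coding exon sequence, had a mean of 91.7%.

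Rbfox3 encodes the splicing factor known as the nuclear marker NeuN, and 4 of its 6 basic protein-coding transcripts begin in the CpG-richest start window of the set (chromosome 11, 118909001 to 118910000, 94 CpGs). That window was at 5.21%, 2.48%, 2.73% and 3.46% in the WT libraries at 7 months and at 1.53% to 4.37%, with a median of 2.51%, in Tg. At 10 months it was at 3.82%, 3.90%, 4.65%, 4.71% and 3.64% in Tg and at 3.54%, 3.52%, 3.17%, 2.46% and 3.39% in WT. Every Tg library thus lay above every WT library at 10 months, by a mean of 0.93 points, while at 7 months the groups overlapped with a difference of -0.76 points, Tg minus WT. By limma over all windows the adjusted p was 0.79 at 10 months and 0.948 at 7 months. The share of all windows that separate as fully is not given here, so the separation does not set this window apart. The other start windows of Rbfox3, which held 12 and 7 CpGs, were at 58.2% ± 9.34 and 87.0% ± 3.36 (SD, n = 20). The window with 12 CpGs lies at the 5′ end of the gene, and the one with 7 CpGs lies 150 kb into it, so a single gene held unmethylated, intermediate and methylated start windows.

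Of the 431, 509 and 78 windows of Rbfox3, Syt1 and Snap25 measured at both ages, 10, 3 and 3 had a mean under 20%, and 9, 2 and 2 of these held no start. The lowest body window of Rbfox3 was an intronic window of 105 CpGs (chromosome 11, 118569001 to 118570000) at 3.33% ± 0.82 (SD, n = 20), 342 kb from the 5′ end. Syt1 held an intronic window of only 5 CpGs (chromosome 10, 108741001 to 108742000) at 18.8% ± 8.25, with libraries from 0% to 31.6%.

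The start levels of the astrocyte genes ran from 0.845% for Slc1a3 to 75.2% for Aqp4. Slc1a3 encodes the glutamate transporter GLAST. Its start window (chromosome 15, 8710001 to 8711000, 39 CpGs) was at 0%, 0.70%, 0.345% and 1.11% in the WT libraries at 7 months and between 0.214% and 2.48%, with a median of 0.909%, in Tg. The 10-month libraries were at 0.917%, 0.254%, 0.724%, 0.221% and 0.446% in Tg and at 0.886%, 2.27%, 0.759%, 1.48% and 0.0977% in WT. The groups overlapped at both ages, and the low stretch was a single window, since neither neighbour was under 20%.

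Gfap encodes the intermediate filament protein of astrocytes, and its start window held 20 CpGs (chromosome 11, 102897001 to 102898000). It was at 70.1%, 76.1%, 75.9% and 78.8% in the WT libraries at 7 months and between 60.4% and 81.0%, with a median of 70.7%, in Tg. In the 10-month libraries it was at 83.9%, 75.1%, 79.1%, 75.8% and 68.3% in Tg and at 80.7%, 75.1%, 74.4%, 77.7% and 69.1% in WT. The groups overlapped at both ages. The lowest window of the gene was not at this start but over coding exon sequence 4 kb downstream of it (102893001 to 102894000, 51 CpGs), at 14.4% ± 2.63 (SD, n = 20). One start of another gene lay in the flanks of the 10 genes, that of Fam187a downstream of Gfap, and its window was methylated at 82.4% ± 2.59 despite 37 CpGs.

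Aqp4 encodes the water channel of astrocyte endfeet and had 4 CpG-poor start windows on chromosome 18. The window in which 5 of its 8 transcripts begin (15410001 to 15411000, 6 CpGs) was at 87.4%, 89.1%, 88.6% and 87.7% in the WT libraries at 7 months and between 82.5% and 95%, with a median of 90.6%, in Tg. At 10 months it was at 89.4%, 89.9%, 93.1%, 74.9% and 95.9% in Tg and at 87.9%, 94.2%, 96.7%, 90% and 86.3% in WT. A single library, Tg replicate 4, was under 80%. The second window (9 CpGs) was at 87.9% ± 3.37, and the 2 windows farthest into the gene (14 and 7 CpGs) were at 63.9% ± 3.82 and 59.8% ± 5.96 (SD, n = 20). Aqp4 was the only member with no window under 20% among those measured at both ages.

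The oligodendrocyte lineage genes ran from 1.94% for Olig2 to 88.3% for Mog at their starts, with Sox10 and Mbp between them. Olig2, a transcription factor that specifies the lineage, lay in the broadest low stretch of the set. Its start window (chromosome 16, 91225001 to 91226000, 63 CpGs) was at 2.27%, 0.641%, 1.30% and 1.66% in the WT libraries at 7 months and between 0.951% and 1.84%, with a median of 1.18%, in Tg. The 10-month libraries were at 2.37%, 2.43%, 1.94%, 4.32% and 1.504% in Tg and at 2.74%, 1.57%, 3.24%, 1.24% and 3.63% in WT. The stretch of windows under 20% ran for 10 kb from 91220001 to 91230000 at a mean of 6.38% and reached the edge of the region taken, so its full length was not measured here. Olig2 was also the only member whose body was low, at 6.09% ± 1.53 (SD, n = 20), and only 0.51% of all genes at 7 months and 0.681% at 10 months had a lower body level. This body level rests on 3 windows, of 72, 79 and 35 CpGs, all inside the same low stretch.

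Sox10, a transcription factor used throughout the lineage, was intermediate at its start. One start window (chromosome 15, 79165001 to 79166000, 20 CpGs) was at 61.2% ± 6.28 and the next one into the gene (79164001 to 79165000, 29 CpGs) at 29.6% ± 9.36 (SD, n = 20). The second was at 29.2%, 28.9%, 33.9% and 36.2% in the WT libraries at 7 months and between 16.3% and 42.1%, with a median of 22.5%, in Tg. In the 10-month libraries it was at 19.8%, 23.6%, 18%, 26.9% and 29% in Tg and at 26.4%, 35.0%, 31.5%, 55.4% and 31.1% in WT. WT replicate 4 at 10 months was the highest library, and the groups overlapped at both ages. The lowest window followed directly (79163001 to 79164000, 82 CpGs, coding exon and UTR), at 10.4% ± 1.70. Over these 3 neighbouring windows methylation was lower the more CpGs a window held.

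Mbp encodes myelin basic protein, a structural protein of compact myelin, and its 2 start windows on chromosome 18 differed more than those of any other member. The upstream window (82475001 to 82476000, 64 CpGs), where 3 of 14 transcripts begin, lay between 0% and 1.92% over the 20 libraries. The window where the other 11 transcripts begin (82554001 to 82555000, 39 CpGs) was at 94.2%, 93.1%, 87.8% and 92.9% in the WT libraries at 7 months and between 89.5% and 95.3%, with a median of 91.9%, in Tg. At 10 months it was at 92.0%, 93.7%, 94.5%, 93.4% and 94.3% in Tg and at 92.2%, 93.7%, 93.1%, 87.2% and 93.2% in WT. No library was under 87.2%, and the groups overlapped at both ages. Mbp also held an intronic window of 7 CpGs (82538001 to 82539000) that was low in every library, at 5.96% ± 3.44 with a range from 1.68% to 13.1%.

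Mog encodes a glycoprotein on the outer surface of myelin. Its start window (chromosome 17, 37023001 to 37024000, 10 CpGs) was at 89.3%, 89.9%, 88.2% and 92.5% in the WT libraries at 7 months and between 83.9% and 94.8%, with a median of 86.6%, in Tg. The 10-month libraries were at 92.2%, 85.4%, 85.2%, 87.7% and 94.1% in Tg and at 84.9%, 81.2%, 90.05%, 85.6% and 92.2% in WT. The groups overlapped at both ages. A higher start level than that of Mog was rare, since 96.8% of all genes at 7 months and 95.8% at 10 months were below it, though the level rests on this single window. The next window into the gene was the lowest of the body, at 38.8% ± 9.65 (SD, n = 20), and the one after it the highest, at 95.1% ± 3.85.

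Set against the CpG count of all start windows, most members lay where windows of that CpG count usually lie. Of start windows of all genes with 30 to 49 CpGs, 84.4% at 7 months and 84.1% at 10 months were under 20%, and of those with 50 or more CpGs 98.5% were at both ages. Of the 7 member start windows with at least 30 CpGs, 6 were under 20%. The exception was the downstream start window of Mbp: windows with 30 to 49 CpGs that were over 90% methylated made up 1.59% of the class at 7 months (70 of 4389) and 1.75% at 10 months (77 of 4404). The 7 member start windows with under 20 CpGs had means from 58.2% to 89.4%, and the 3 with 20 to 29 CpGs were those of Sox10 and Gfap.

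**Figure D2:**
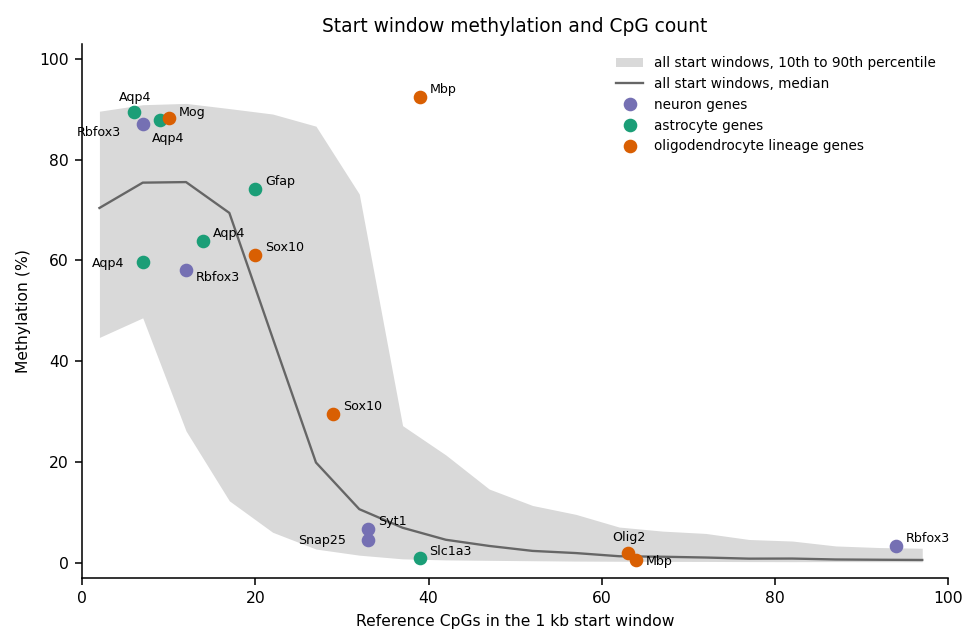
Mean methylation of a start window in percent (vertical axis) against the number of reference CpGs in it (horizontal axis). Points are the 17 member windows, coloured by the cell type their gene marks, and the line and band are the median and the range from the 10th to the 90th percentile of all start windows in bins of 5 CpGs. One member window, the Mbp window with 39 CpGs at 92.4%, lies far above the band.

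The relation to CpG count extended to all windows of the members. All 10 member windows with 50 or more CpGs were under 20% at both ages, against 90.8% of all such windows of the genome at 7 months and 90.5% at 10 months. Of the 30 member windows with 30 to 49 CpGs, 13 were under 20% and 8 over 80% at each age, that is 26.7% over 80% against 42.4% of all such windows at 7 months and 43.2% at 10 months. Over all members, 35 of 1337 windows had a mean under 20%, and Olig2 and Rbfox3 held 11 and 10 of them. These counts are a description of 10 chosen genes and were not tested.

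Gene bodies, taken as the windows that overlap a gene and hold no start, ranged from 6.09% ± 1.53 in Olig2 to 82.7% ± 1.41 in Mog (SD, n = 20). Between them lay Sox10 at 59.6% ± 1.42, Gfap at 63.96% ± 3.84, Rbfox3 at 69.7% ± 0.93, Snap25 at 73.8% ± 1.18, Syt1 at 76.3% ± 0.91, Mbp at 78.6% ± 0.55, Slc1a3 at 78.6% ± 0.85 and Aqp4 at 79.7% ± 1.36. The median gene body was at 78.7% at 7 months and 79.2% at 10 months, so Olig2, Sox10, Gfap, Rbfox3, Snap25 and Syt1 were lower than the median gene at both ages by over 1 point, Mog was higher by over 1 point, and Mbp, Slc1a3 and Aqp4 lay within 1 point of it. Neighbours in this order were separate over all libraries only from Olig2 to Sox10, from Rbfox3 to Snap25 and from Syt1 to Mbp. The means of Mbp and Slc1a3 were 0.035 points apart, less than their spread. Body levels and their order also depended on how windows were averaged. Weighted by CpG count, Sox10 was at 42.5% and Gfap at 55.8% at 7 months. With the median over windows, Slc1a3 was at 86.9% and Mbp at 86.2% at 7 months, both above Aqp4 at 84.6%. Windows over 80% made up 38.2% of member body windows at 7 months and 41.0% at 10 months, against 51.4% and 53.2% of all windows. The pooled share rested on Rbfox3 and Syt1, which held 418 and 500 of the 1228 body windows at 7 months and had 23.2% and 41.4% over 80%. In Aqp4, Slc1a3, Mbp and Mog the share at 7 months was 66.7%, 65.3%, 65.1% and 76.9%, above that of all windows. In Snap25, Gfap, Sox10 and Olig2 it was 27.5%, 30.8%, 0% and 0%, below that of all windows.

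**Figure D3:**
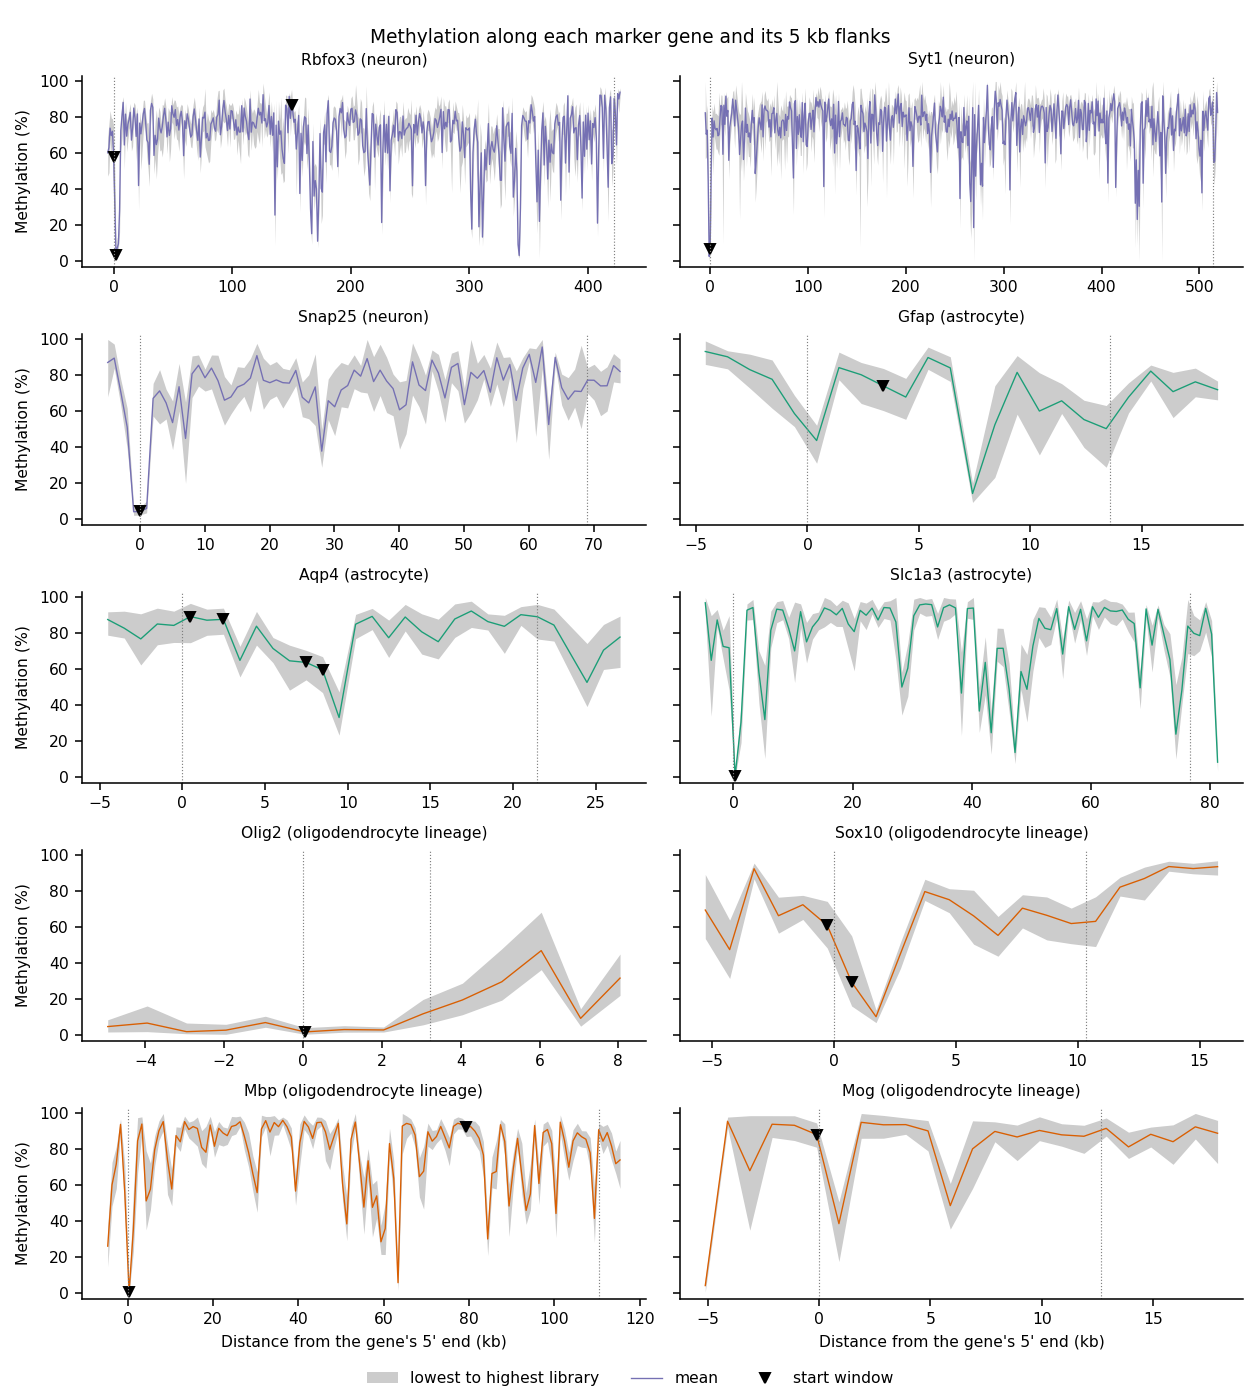
Methylation in percent (vertical axes) of consecutive 1 kb windows against the distance from the 5′ end of each gene in kb (horizontal axes, different scales), with 5 kb on either side. The line is the mean and the grey band the lowest to highest library of up to 20, triangles are start windows and dotted lines the ends of the gene. The profiles of Syt1, Snap25, Slc1a3, Rbfox3 and Mbp dip near 0% at a start, Olig2 is low along its whole body, and Mog and Aqp4 show no dip under 20% at a start.

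By the smallest root mean square difference of start and body levels over 20 libraries, the gene most like a member among the 78 marker genes compared was from the same list for Olig2 and Mbp and from another list for the other 8. A member's own list held 14 to 16 of the genes measured, so this count sets nothing apart. Olig2 was nearest to Nkx2-2, another transcription factor of the oligodendrocyte lineage, with a difference of 2.73 points. Slc1a3 was nearest to Myrf at 1.37 points, Syt1 and Snap25 to Gja1 at 2.54 and 2.56 points, with the neuron genes Stmn2 at 2.78 points from Syt1 and Gad2 at 2.67 points from Snap25, and Rbfox3 to Ugt8a at 3.35 points. The nearest genes to Mog, Gfap and Sox10 were Cdh5, Ly6g and Olfml3, which mark endothelial cells, neutrophils and microglia, at 4.57, 6.61 and 5.75 points. Aqp4 was nearest to Ermn at 4.83 points and Mbp to Ugt8a at 5.42 points.

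To set the members beside genes that microglia do use, 6 lists of cell type markers were compared at CpG-poor start windows, those with under 20 CpGs. For each library the median over the genes of a list was taken. The microglial list (12 genes, among them P2ry12, Cx3cr1, Csf1r, Trem2 and C1qa) was the lowest in each of the 20 libraries, at 15.02% ± 5.20 at 7 months and 18.3% ± 4.70 at 10 months (SD, n = 10 each). The oligodendrocyte lineage list (6 genes, among them Mog) was at 84.6% ± 2.69 and 83.0% ± 1.204, the astrocyte list (5 genes, among them Aqp4) at 71.4% ± 2.70 and 71.9% ± 4.94, and the neuron list (4 genes, among them Rbfox3) at 29.5% ± 3.03 and 29.3% ± 3.23. Blood leukocyte markers (7 genes) were at 72.6% ± 3.41 and 75.4% ± 5.10, and endothelial and mural markers (3 genes) at 57.0% ± 5.61 and 60.6% ± 7.83. The lowest library of the oligodendrocyte list, at 81.0%, was far above the highest library of the microglial list, at 27.4%.

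**Figure D4:**
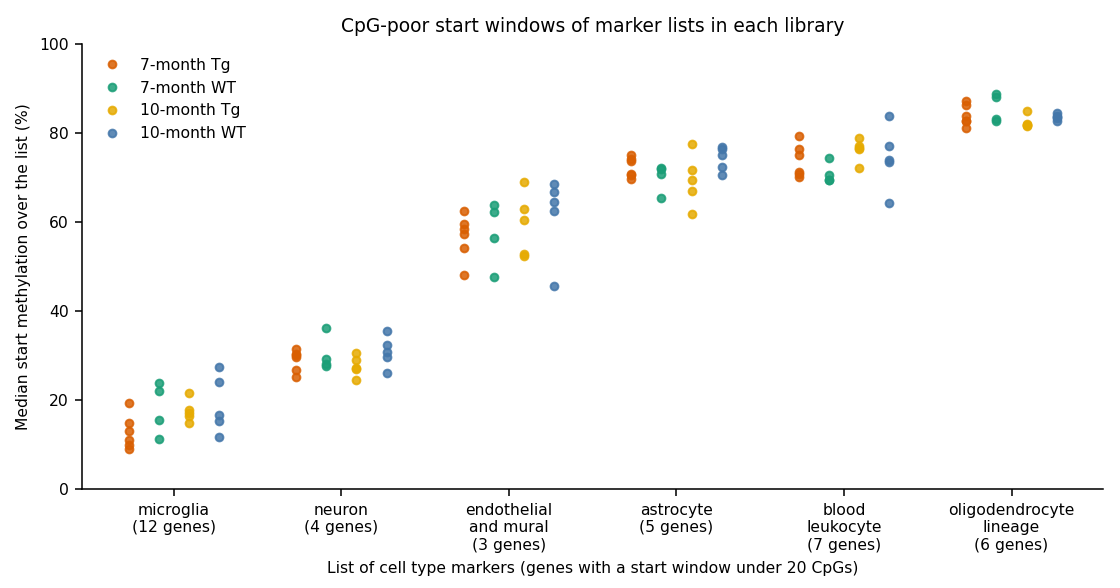
Median methylation in percent (vertical axis) over the CpG-poor start windows of 6 lists of cell type markers (horizontal axis). Each point is 1 library, coloured by group as labelled. The microglial list lies between 8.96% and 27.4%, and the oligodendrocyte lineage list between 81.0% and 88.7%.

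The selection of microglia can be read from the same windows only in part. Within the microglial list, CpG-poor start windows at 10 months ranged from 8.08% ± 7.11 for Fcrls and 8.96% ± 5.94 for Cx3cr1 to 44.3% ± 11.2 for Itgam and 48.2% ± 1.90 for Olfml3 (SD, n = 10), so that not every microglial gene was low. The neuron list held 4 genes and was the nearest to the microglial list. Over all their start windows, CpG-rich ones included, these genes lay between 7.82% for Stmn2 and 49.5% for Rbfox3. The 2 CpG-poor start windows of Rbfox3, which alone enter the list, were at 58.2% and 87.0%. With only start windows under 10 CpGs, the neuron list, then of 2 genes, was at 71.6% at both ages and the microglial list, then of 4 genes, at 37.0% and 38.0%. No methylome of purified neurons, astrocytes or oligodendrocytes was used here, so a share of such cells in a library was not estimated. In the 2 libraries that went against their labels, Tg replicate 6 and WT replicate 2, the oligodendrocyte list was at 82.7% and 83.1% and the microglial list at 19.4% and 11.3%. By group as labelled, the microglial list was at 12.9% ± 3.82 in Tg (SD, n = 6) and 18.2% ± 5.85 in WT (SD, n = 4) at 7 months, and the groups overlapped only through these 2 libraries. Without them the list ran from 8.96% to 14.9% in Tg (n = 5) and from 15.5% to 23.9% in WT (n = 3). In each of the other lists the groups still overlapped without these 2 libraries, for example from 25.2% to 31.6% in Tg and from 27.6% to 36.2% in WT for neuron genes. The share of all genes that separate as fully is not given here. At 10 months the groups overlapped, from 14.9% to 21.6% in Tg and from 11.9% to 27.4% in WT. These group values were not tested. The astrocyte list was at 74.9% and 65.5% in Tg replicate 6 and WT replicate 2, the highest and the lowest value at 7 months.

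Over all start windows, whatever their CpG count, the lists were less separate, and the neuron list and not the microglial list was the lowest. Median start methylation over the 20 libraries was 5.57% for 16 neuron genes, 20.1% for 14 astrocyte genes, 35.6% for 16 oligodendrocyte lineage genes, 11.9% for 17 microglial genes, 22.3% for 7 endothelial and mural genes and 73.5% for 9 blood leukocyte genes. The 2 lowest and 2 highest neuron genes were Gad2, Snap91, Map2 and Rbfox3, the astrocyte genes Slc1a3, Atp1b2, Gfap and Aqp4, and the oligodendrocyte lineage genes Myrf, Olig2, Opalin and Mog. The level averaged over the start windows of a gene was over 80% for 3 oligodendrocyte lineage genes, 2 blood leukocyte genes and 1 endothelial gene, and for 0 neuron, astrocyte and microglial genes, although single start windows of Rbfox3 and Aqp4 were higher than that.

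The design asked whether α-synuclein overexpression was accompanied by a change in methylation at each age, and for the 10 marker genes no window was called. To be counted as a differentially methylated region (DMR), a window needed a gap of 25 points or more between the Tg and WT means and, by limma over all windows, a Benjamini-Hochberg adjusted p below 0.01. The study used the same cutoffs with the test of methylKit and reported DMRs at both ages. The test here is a different one, so its counts cannot be set beside those of the study. At 7 months 0 of 1343 member windows were DMRs, as were 0% of all windows (0 of 2260746), and the lowest adjusted p of a member window was 0.936. At 10 months 0 of 1345 member windows were DMRs, where 0.0327% of all windows (746 of 2280867) were, and the lowest adjusted p was 0.153. At an unadjusted p under 0.05, 45 member windows (3.35%) passed at 7 months and 63 (4.68%) at 10 months, against 5.28% and 7.21% of all windows. Without the 2 libraries that went against their labels, 331 DMRs were called in all at 7 months and 0 among the members, and 48 member windows (3.57%) had an unadjusted p under 0.05 against 6.65% of all windows. A share of 0.0327% of 1345 windows is less than 1 window, so the count of 0 at 10 months does not set the members apart.

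**Figure D5:**
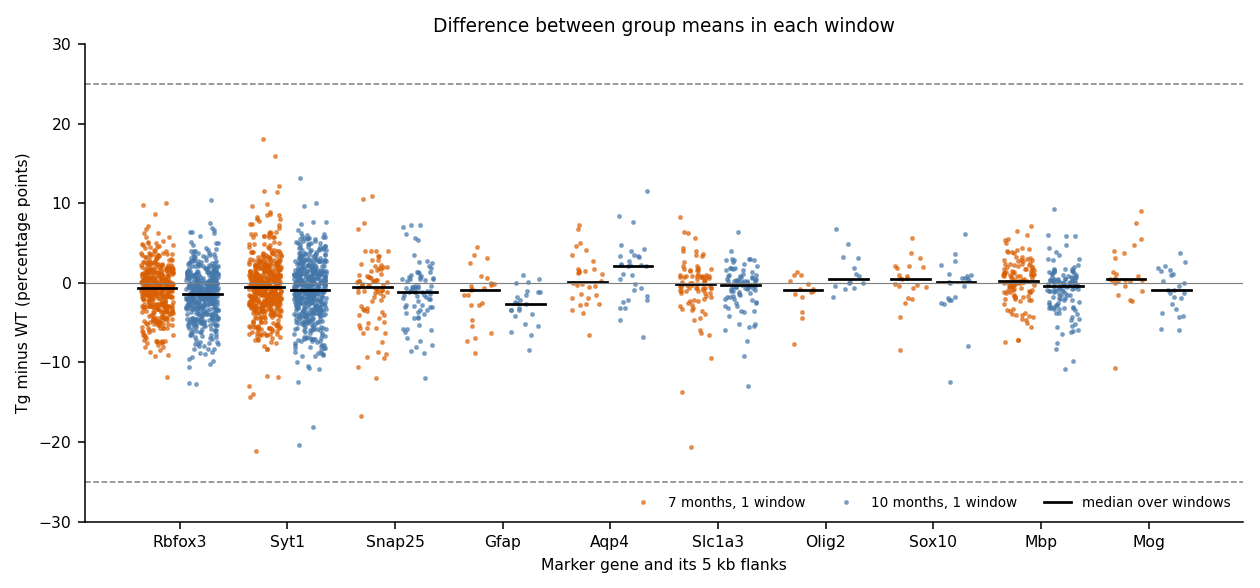
Difference between the Tg and WT group means, as labelled, in percentage points (vertical axis) for every window of each marker gene and its 5 kb flanks (horizontal axis), at 7 and 10 months. Each point is 1 window, bars are medians over windows and dashed lines mark 25 points. All points lie between -21.1 and 18.1 points.

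The largest difference of any member window was in an intronic Syt1 window with 4 CpGs (chromosome 10, 108857001 to 108858000), at 56.3% ± 26.8 in Tg (n = 6) and 77.4% ± 12.9 in WT (n = 4) at 7 months, a difference of -21.1 points with overlapping libraries and an adjusted p of 0.936 by limma. Without Tg replicate 1, which was at 8.33%, it was -11.5 points, and without the 2 libraries that went against their labels it was -27.8 points, with groups that still overlapped. Another intronic Syt1 window, with 1 CpG (chromosome 10, 108740001 to 108741000), was at 67.8% ± 12.7 in Tg and 88.2% ± 12.0 in WT at 10 months (SD, n = 5 each), a difference of -20.4 points with overlapping libraries and an adjusted p of 0.467 by limma. In Slc1a3, an intronic window with 3 CpGs (chromosome 15, 8700001 to 8701000) was at 62.1% ± 6.37 in Tg (n = 6) and 82.6% ± 10.3 in WT (n = 4) at 7 months, and every Tg library was below every WT library, with an adjusted p of 0.936. The lowest of them was the library labelled Tg replicate 6, and without it and WT replicate 2 the groups remained separate, with a difference of -19.3 points. This window was not measured at 10 months, and the share of all windows that separate as fully is not given here. In the start window of Sox10 with 29 CpGs, the difference, Tg minus WT, was -12.4 points at 10 months (23.5% ± 4.63 against 35.9% ± 11.3, SD, n = 5 each), with an adjusted p of 0.619. Without WT replicate 4 the difference was -7.54 points. In the other direction, the largest differences were 18.1 points at 7 months and 13.2 points at 10 months, both in Syt1, and an Aqp4 window downstream of the gene with 6 CpGs differed by 11.5 points at 10 months (60.03% ± 9.68 against 48.5% ± 4.63, SD, n = 5 each), with an adjusted p of 0.667 by limma.

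Averaged per gene, start methylation did not pass the test for any member. Of all genes, 0% at 7 months (0 of 20733) and 0.00962% at 10 months (2 of 20799) were called at an adjusted p under 0.05 by limma. Member differences, Tg minus WT, ran from -4.65 points (Gfap) to 1.79 points (Rbfox3) at 7 months and from -6.16 points (Sox10) to 2.12 points (Mog) at 10 months, with adjusted p of at least 0.92 and at least 0.816. At 7 months 6 members were lower in Tg and 4 higher, where 52.2% of all genes were lower, and at 10 months 3 were lower and 7 higher, where 58.0% of all genes were lower. Without the 2 libraries that went against their labels, 5 members were lower and 5 higher at 7 months, and differences ran from -6.85 points (Sox10) to 2.25 points. Single libraries carried these values: at 7 months the difference of Gfap was -2.63 points without Tg replicate 4 and that of Rbfox3 -0.11 points without WT replicate 3, and at 10 months that of Sox10 was -2.86 points without WT replicate 4 and that of Mog 0.73 points without WT replicate 2. Over the alternatives, 4 of 10 members took the other sign in at least 1 of them at each age, among them Gfap at 10 months, with a range from -0.84 to 3.06 points.

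Body methylation was lower in Tg in 8 of 10 members at 10 months, with a median difference of -0.89 points, and 0 members were called, where 1.33% of all genes (279 of 20989) were. That count over all genes was not stable, at 77 to 238 with 1 library left out and 11 with the replicate number as a block. Over all genes 74.3% were lower in Tg, with a median of -0.60 points. Rbfox3 was at 69.8%, 69.7%, 69.4%, 68.3% and 69.1% in Tg and at 71.1%, 70.6%, 70.99%, 70.7% and 70.6% in WT. Every Tg library lay below every WT library, with a difference of -1.55 points (log2 ratio -0.10, SE 0.031, unadjusted p = 0.0075 and adjusted p = 0.139 by limma over all gene bodies). Aqp4 went the other way, at 80.8%, 81.5%, 79.3%, 81.7% and 79.9% in Tg and 77.7%, 78.6%, 79.8%, 78.7% and 79.7% in WT, and the groups overlapped. The difference of 1.73 points had an unadjusted p of 0.0196 and an adjusted p of 0.208 by limma. These 2 of 10 members had an unadjusted p under 0.05, as did 3521 of all 20989 genes, so the count does not set the members apart. Over the alternatives 1 to 5 members had such a p. The share of genes whose groups separate as fully as those of Rbfox3 is not given here. Olig2, the other member that was higher in Tg, was at 7.49% ± 1.38 against 6.09% ± 1.15 (SD, n = 5 each), with an adjusted p of 0.354.

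At 7 months body methylation was lower in Tg in 6 of 10 members, with a median difference of -0.46 points, against 61.1% of all genes and a median of -0.25 points. None of the members was called, and 0% of all genes were (0 of 20967). Differences ran from -2.72 points in Gfap (61.8% ± 3.25, n = 6, against 64.5% ± 2.62, n = 4) to 1.92 points in Mog (83.3% ± 1.81 against 81.4% ± 0.76), and the lowest adjusted p was 0.747, for Mog. Without the 2 libraries that went against their labels, 7 of 10 were lower, and differences ran from -4.35 points (Gfap) to 2.35 points (Aqp4). That of Mog was 1.02 points, and 0 members were called among 32 genes called in all. By limma without these 2 libraries, the lowest adjusted p of a member was 0.273. An unadjusted p under 0.05 was then found for 2 members and for 2730 of all 20967 genes. Rbfox3 was lower in Tg at 7 months too, with a difference of -0.94 points, overlapping groups and an adjusted p of 0.788 (-0.95 points and 0.596 without the 2 libraries), and the 2 ages had no library in common.

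Whether the genotype difference itself differed between ages was tested as the interaction of genotype and age. No member was called, and 0% of all genes were, by start methylation (0 of 20606) or by body methylation (0 of 20932). At an unadjusted p under 0.05, 1095 of 20606 genes passed for starts and 1492 of 20932 for bodies, and none of the members did. With so few members, this count does not set them apart. The lowest unadjusted p for a member were 0.0531 for the start of Slc1a3 (adjusted p = 0.934 by limma) and 0.0555 for the body of Mog (adjusted p = 0.719). Without the 2 libraries that went against their labels, 0 members and 0 genes were called for starts or bodies, and the lowest adjusted p of a member was 0.908 for starts and 0.658 for bodies.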

How the data were processed

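Microglia were isolated with magnetic beads from the whole brain of 1 male mouse per library. The labels name IBA1 and the study's methods name CD11b for this selection. Per the labels, enzymatic methyl sequencing reads were trimmed with Trim Galore 0.6.7 and aligned to mm10 with Bismark 0.23.1 and Bowtie2 2.2.5, and methylKit 1.22.0 was used to summarise methylation in 1000 bp windows. The authors deposited 1 table per age and 1 file per library, in which each value is the fraction of cytosine calls in a window that were methylated, given here as a percent. It holds no read numbers, so the depth of a window is unknown and no interval is given. Each age has its own set of windows. Members and lists were chosen with earlier results of these data known.

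Windows were assigned to GENCODE genes with flanks of 5 kb. A start window holds the 5′ end of a basic protein-coding transcript, a body window any other part of the gene, and CpG counts come from the reference genome. Percentages were transformed as log2((percent + 1) / (101 - percent)) and fitted with limma 3.58.1 (R 4.3.3) over all windows, or over the mean start or body level of all protein-coding genes, with Benjamini-Hochberg adjustment. A window was called at a difference of at least 25 points and an adjusted p under 0.01, and a gene at an adjusted p under 0.05. The fits were tested on simulated gene start levels with planted differences far larger than those of the members. This check therefore does not show how well small differences would be found. Named windows were the start windows, the lowest and highest body window among those measured at both ages, and the window with the largest group difference of each gene. The cell type lists hold textbook markers. Alternatives covered the scale, pseudocount, variance trend, minimum CpG number, weighting, thresholds, a replicate block and leaving out each library. Leaving out both libraries that go against their labels (levels, lists and largest window differences) and each library in turn (largest window differences) was added after seeing the data.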

Additional observations from a re-analysis of the deposited data

Results flagged for a closer look

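Start and body levels of the 10 genes were examined in each of the 4 groups for a library far from the others of its group, and 5 of 80 such groups held one, where chance gives about 1 in 20. Aqp4 body methylation in 7-month Tg replicate 3 was 82.3%, with the nearest library at 80.3%. Mbp body methylation in the same library was 79.8%, with the nearest at 78.6%. Aqp4 start methylation in 7-month Tg replicate 2 was 77.9%, with the nearest at 74.9%. Olig2 body methylation in 7-month Tg replicate 4 was 8.49%, with the nearest at 5.70%. Sox10 start methylation in 10-month WT replicate 4 was 61.4%, with the nearest at 47.6%.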

How the results depend on the processing

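No marker gene or window was called under any alternative run, at either age or for the interaction, and no called direction existed to reverse. With the replicate number as a block, 0 member windows and 0 member genes were called, and the adjusted p of the Rbfox3 body at 10 months was 0.303 in place of 0.139. Libraries with the same number did not deviate together, since correlations lay between -0.0305 and 0.0392 at 7 months and between -0.00484 and 0.00457 at 10 months, and 0 libraries correlated best with their own number. Over all windows, calls at 10 months ran from 135 to 1835 over the alternatives, with 232 under the block. At 7 months they rose from 0 to 16 without Tg replicate 6 and to 55 without WT replicate 2, and 0 of these calls were member windows. The marker list medians depended on which starts were taken. With only start windows under 10 CpGs, values at 7 and 10 months were 71.6% and 71.6% for neuron, 76.7% and 78.8% for astrocyte, 79.6% and 77.8% for oligodendrocyte lineage and 37.0% and 38.0% for microglial genes, and no endothelial gene was left. With the mean over genes in place of the median, they were 34.1% and 35.2% for neuron, 23.4% and 24.3% for microglial and 50.6% and 51.9% for endothelial and mural genes. Start levels also depended on the windows averaged. With windows within 500 bp of a start, Slc1a3 was at 33.5% and 35.6%, Olig2 at 4.26% and 4.82%, Mbp at 67.1% and 67.1% and Mog at 64.5% and 62.6%, and weighted by CpG count Rbfox3 was at 13.7% and 15.03% and Mbp at 35.3% and 35.4%. The depth of a window is unknown, so differences of a few points in windows with few CpGs could not be given a counting error.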
